A study of Mus musculus with 2 samples.

Results

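The miRNAs described here are the latest-named mouse miRNAs on the array, those whose name carries a number of 3000 or more directly after mmu-miR-. The first name in each entry was read for this, and 129 of the 831 deposited entries (15.5%) met the rule, with 98 different numbers from 3057 to 5627. They were measured in microvesicles (MVs), small membrane vesicles shed into the medium, of mesenchymal stem cells (MSCs) from the bone marrow of male C57BL/6 mice aged 4 weeks, used at passage 3 according to the methods. EPO-MVs came from the supernatant of MSCs kept for 48 h with 100 IU/ml erythropoietin (EPO), the hormone that drives red cell formation, and MSC-MVs came from MSCs kept for 48 h without it. Both cultures held DMEM/F12, FBS at 10% and the antibiotics penicillin and streptomycin. With 1 array per condition, differences have no replicate check, nothing was tested, and what the array adds and what EPO adds cannot be told apart. In such bulk preparations fewer vesicles and less of a miRNA per vesicle cannot be told apart either.

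A miRNA is cut from a hairpin RNA as a strand of about the length of a small interfering RNA, and it guides silencing proteins to messenger RNAs mainly through its seed, bases 2 to 8 from the 5′ end. The hairpin has a 5p and a 3p arm, and either can give the mature strand. miRNA names are numbered in the order of registration, so high numbers belong to miRNAs found late, most of them by sequencing. Many such sequences are specific to a few species, lie inside other genes or resemble repeats and other small RNAs, and their functions are less well known than those of the early-named families.

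On both arrays the 6 stromal miRNAs of a fixed list (miR-199a-3p, miR-199a-5p, miR-214-3p, miR-21a-5p, miR-22-3p and miR-31-5p) were listed, with summed intensities of 169 in EPO-MVs against 207 in MSC-MVs. The 6 blood cell miRNAs of the list were also listed, at 67.6 and 79.9, led by miR-142-3p at 44.0 and 48.9. Of these, miR-144-3p (0.340 and 0.195) and miR-150-5p (0.970 and 0.716) were higher in EPO-MVs, and the other 4 were lower. Of 5 epithelial miRNAs, 4 were listed, at 0.342 and 0.228 in sum. The part of blood cell RNA in the values below was not tested. The sum over all entries was 1957 for EPO-MVs against 2147 for MSC-MVs.

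The deposited value is a normalized intensity on a linear scale, a measure of how brightly a capture probe shone. The values of an array are multiples of its smallest one, within 1.83e-05 of a whole number, which serves below as the unit, a step. An intensity of 1 is 471 steps in EPO-MVs, against 447 for MSC-MVs. Probes differ in how well they bind and label, so intensities of different miRNAs do not give their relative numbers of molecules.

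The first 4 sequences below are those of the 4 brightest members, shown because they carry most of the members' signal. The next 3, of bright members but not the next in order, are shown because their letters recur in other miRNAs. They were taken from RefSeq on the assembly GRCm38.p6, which held a mature sequence under the same name for 114 of the 129 members. Capitals mark the seed.

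miR-3963: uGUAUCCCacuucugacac

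miR-5100: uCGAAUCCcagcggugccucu

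miR-3968: cGAAUCCCacuccagacacca

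miR-3068-3p: gGUGAAUUgcaguacuccaaca

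miR-3473a: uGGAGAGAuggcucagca

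miR-3473b: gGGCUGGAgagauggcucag

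miR-3962: aGGUAGUAguuuguacauuu

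The members held 30.3% of the summed signal in EPO-MVs against 28.3% in MSC-MVs, while being 15.5% of the entries. Their summed intensity was 593 in EPO-MVs against 608 in MSC-MVs, and that of the other entries was 1364 against 1539. The higher share in EPO-MVs thus went with a slightly lower sum of the members. Most of the members' signal came from few probes. miR-3963, whose gene RefSeq places on chromosome 3, had an intensity of 278 in EPO-MVs against 293 in MSC-MVs and was the brightest of all entries on both arrays. It alone held 14.2% and 13.6% of the summed signal. In steps its values were 130919 and 130926, which differ by 7 steps, and its ratio of 0.949 equals that of the 2 step sizes. Divided by 2 these steps are 65459.5 and 65463, close under 65535, the highest value of a 16-bit scanner pixel. The sources used here do not give what a step stands for, so the divisor of 2 is an assumption on which this closeness depends. Whether the spot was saturated was not tested, since no saturation mark was used here. If it was, the intensities and shares of miR-3963 are lower bounds and its ratio is not a measured difference, and the members' total share is limited in the same way. miR-5100, whose gene lies within Mief2 on chromosome 11, was next on both arrays with 161 in EPO-MVs against 176 in MSC-MVs (ratio 0.915). Together these 2 held 74.1% of the members' signal in EPO-MVs against 77.2% in MSC-MVs.

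**Figure D1:**
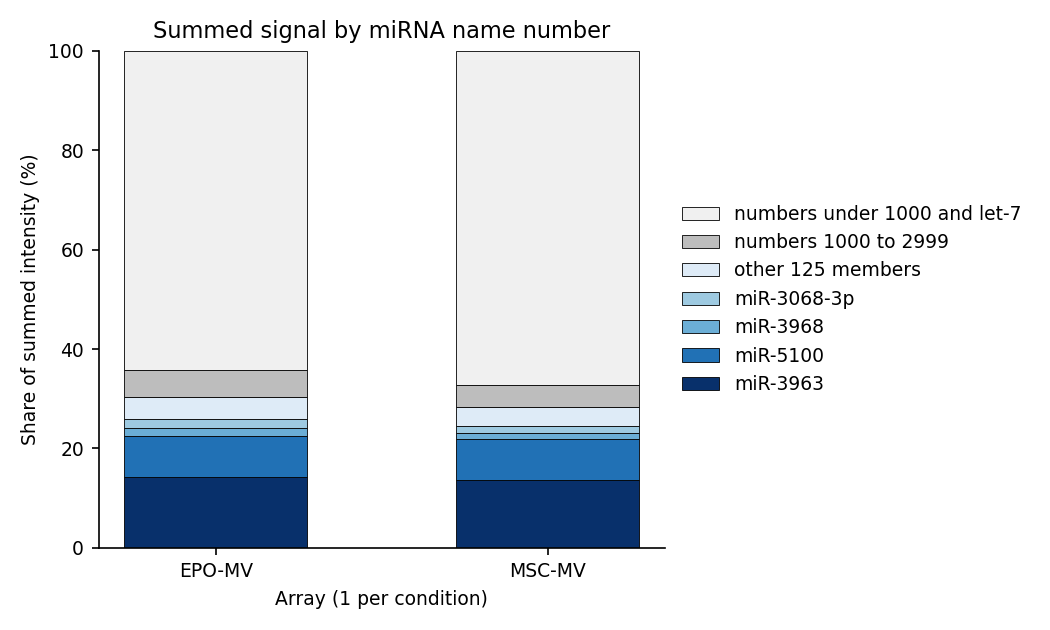
Share of the summed normalized intensity (percent) on the EPO-MV and MSC-MV arrays, stacked by miRNA name number, with the 4 brightest members shown separately. The members reach 30.3% in EPO-MVs against 28.3% in MSC-MVs, and miR-3963 and miR-5100 fill most of that part on both arrays.

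The next members stood far below this pair. miR-3968, from a gene overlapping Trim80 on chromosome 11, had 33.8 in EPO-MVs against 28.2 in MSC-MVs (ratio 1.20). miR-3068-3p, from the gene within Alkbh1 on chromosome 12, had 34.8 and 27.1 (ratio 1.28). Both were higher on the EPO-MV array, and they moved up in the order of all entries, miR-3968 from place 17 to place 10 and miR-3068-3p from place 19 to place 9. Neither reached 1.5-fold in the deposited values, but quantile normalization gave 1.61 for miR-3068-3p and 1.45 for miR-3968. Lowess gave 1.49 and 1.39. Of the 10 brightest entries, 4 were members in EPO-MVs against 2 in MSC-MVs, and of the 100 brightest, 11 and 12 were.

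The remaining members of the 15 brightest lay between 2.54 and 7.42 on both arrays. miR-5107-5p had 7.42 in EPO-MVs against 6.02 in MSC-MVs (ratio 1.23), and miR-5099 had 2.97 and 2.54 (ratio 1.17). Of these, 4 were lower in EPO-MVs by more than 10%: miR-3970 with 2.83 against 4.19 (ratio 0.675), miR-5113 with 2.64 against 3.56 (ratio 0.742), miR-5129-5p with 2.54 against 3.08 (ratio 0.824) and miR-3473b with 3.13 against 3.57 (ratio 0.877). The other 4 besides miR-3473a stayed between 0.937 and 1.04 in ratio, namely miR-3103-3p, miR-3082-5p, miR-3102-5p and miR-3084-3p. RefSeq places miR-5129 in Zeb2, the gene of a repressor of E-cadherin, and miR-5113 in Tnrc6b, the gene of a protein that works with the silencing complex itself.

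Outside the brightest few, the members were dim. Their median was 77 steps for EPO-MVs and 63 for MSC-MVs, where all entries had 97 and 87, and 67 of the 129 (51.9%) had at least 60 steps on both arrays, against 463 of 831 (55.7%). The 86 entries numbered from 1187 to 2861 were dimmer still, with medians of 64.5 and 54.5 steps. Of these, 45.3% had at least 60 steps on both arrays. Signal was uneven across the number ranges. The 11 members numbered 3960 to 3971 held 16.4% of all signal in EPO-MVs against 15.5% in MSC-MVs, with miR-3963 and miR-3968 among them. The 25 numbered 5098 to 5135 held 9.45% and 9.26%, mostly miR-5100. The 66 members numbered 3057 to 3113, the largest range, held 3.25% and 2.52%. The 11 numbered 3470 to 3572 and the 16 numbered 5615 to 5627 each held under 1% on both arrays.

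The 3 members miR-3963, miR-5100 and miR-3968 shared the letters AUCCCA, a run looked for after their sequences were seen. Only 1 other of the 680 entries with a sequence held it, miR-191-5p, so that 0.588% of the searched sequences carried the run and these 4 held 24.3% of all signal in EPO-MVs against 23.3% in MSC-MVs. miR-5100 and miR-3968 shared the longer run CGAAUCCCA, which no other searched sequence contained. The T arm of transfer RNAs is known for a conserved stretch that holds UCGANUCC, and mature transfer RNAs end in CCA. The letters UCGANUCC were found in miR-5100 and in miR-434-3p, a lower-numbered entry, and miR-3968 ends in CCA. These are matches of letters and say nothing of where the signal came from.

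Another group resembled a genomic repeat. The first 16 bases of miR-3473a are identical to the bases of miR-3473b from position 5 on (UGGAGAGAUGGCUCAG), and the start of miR-3473b (GGGCUGGAGAGA, 12 bases) is the reverse complement of a stretch of miR-3473c. This sequence is that of the head of the mouse B2 element, a short interspersed repeat present in very many copies. The run GAGAGAUGGCUC, which both hold, was found on either strand in the promoter windows (250 bases before to 50 after the start) of 81 of 27025 RefSeq genes (0.300%). The whole miR-3473b sequence was in the windows of 32 genes other than its own, that of miR-3470b in 10 and that of miR-3473a in 9. miR-3470b shared no run of at least 12 bases with the miR-3473 members and is not counted in their group. No other member was found in more than 1, and none of the 566 lower-numbered sequences was in 10 or more. miR-3473a had 6.0 in EPO-MVs against 5.36 in MSC-MVs (ratio 1.12), so the pair with the shared run lay on opposite sides of 1. Of the others with this number, miR-3473c had 0.136 and 0.105 (ratio 1.29) and miR-3473d had 0.142 and 0.143 (ratio 0.994). Probes for sequences this alike can capture each other's target, and how far they did was not tested.

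**Figure D2:**
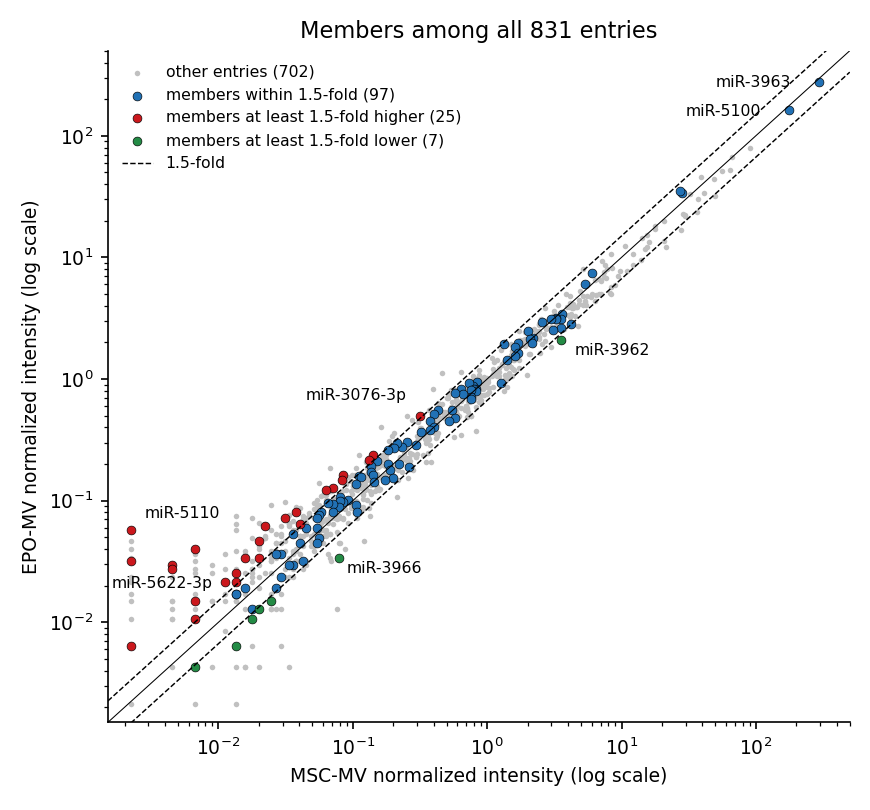
Normalized intensity of each entry in EPO-MVs against MSC-MVs, both axes on a log scale, with the 129 members in colour by their ratio, the other 702 entries in grey and dashed lines at 1.5-fold. The brightest members follow the diagonal, miR-3962 is the brightest one past the line, and the widest departures are at the dim end, where miR-5110 and miR-5622-3p sit at 1 step in MSC-MVs.

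Of the 129 members, 32 (24.8%) differed by at least 1.5-fold between the arrays, against 25.4% of all 831 entries. Higher in EPO-MVs were 25 members, where 17.8% of all entries were higher, and lower were 7, where 7.58% of all entries were lower. The share past the threshold was thus close to the background. The split by direction depended on the scaling, with 20 higher and 14 lower after quantile normalization and 17 higher and 14 lower after lowess. Of all changed entries, 95 of 190 were then higher with the first and 92 of 188 with the second. At 2-fold 14 members passed, against a background of 10.6%. The median ratio of the members was 1.14 (log2 0.20), against 1.04 (log2 0.05) over all entries and 1.01 (log2 0.01) over the 616 entries numbered under 1000 with let-7. It was higher still, 1.20 (log2 0.27), over the 86 entries numbered from 1187 to 2861, of which 23 were 1.5-fold higher and 1 lower. By any amount, 85 of the 129 members (65.9%) were above their MSC-MV value, against 56.1% of all entries and 79.1% of those numbered from 1187 to 2861. The shift upwards was thus also seen outside the members. It too depended on the scaling, with a median log2 ratio of the members of 0.090 after quantile normalization and 0.11 after lowess, where that of all entries was 0.00 in both.

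The changed members were dim. Among the 67 members with at least 60 steps on both arrays, 3 passed 1.5-fold, 2 higher and 1 lower, where 8.64% of all such entries passed, 3.24% higher and 5.4% lower. All entries were ordered by mean log2 intensity and divided into 4 equal bands. In the dimmest band 24 of the 40 members passed (60%, other entries 61.3%), and in the next 6 of 32 (18.8%, other entries 22.7%). In the third band 1 of 30 passed (3.33%, other entries 10.7%), and in the brightest 1 of 27 (3.70%, other entries 9.39%). The median log2 ratio of the members was 0.42 in the dimmest band and then 0.38, 0.16 and -0.04, while that of the other entries was 0.51, 0.14, 0.00 and -0.11. The members' median thus lay below that of the other entries in the dimmest band and above it in the 3 brighter ones.

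**Figure D3:**
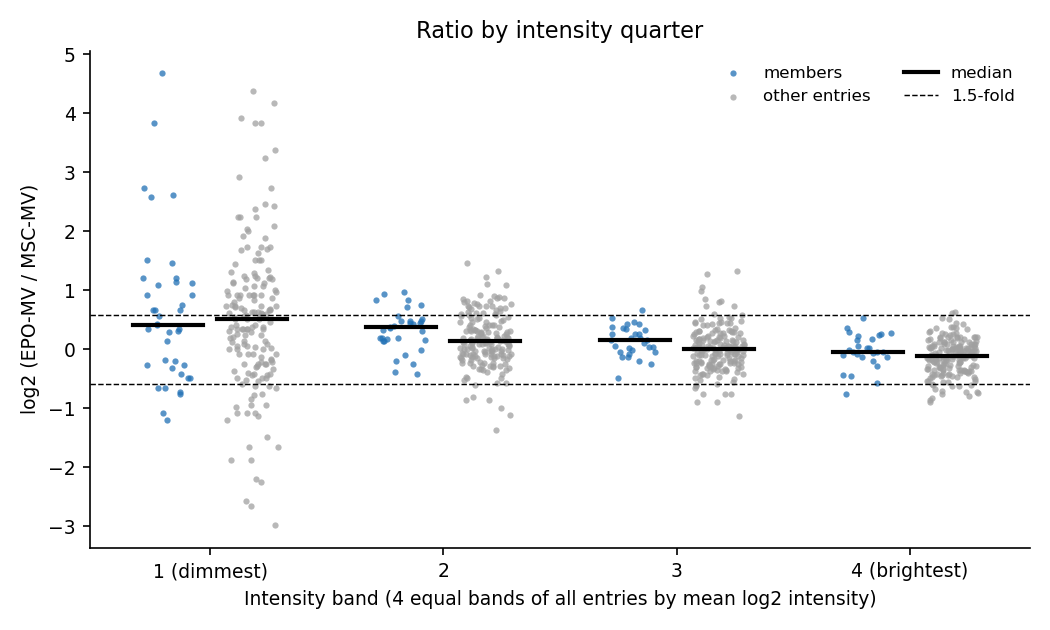
The log2 ratio, EPO-MV over MSC-MV, for members (blue) and other entries (grey) in 4 equal bands of all entries ordered by mean log2 intensity, with medians as bars and dashed lines at 1.5-fold. The members' medians go from 0.42 in the dimmest band to -0.04 in the brightest, and the widest spread is in the dimmest band.

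The 3 brighter members past 1.5-fold are shown with a related let-7 sequence. let-7 is one of the oldest miRNA families and restrains growth genes such as Hmga2 and Lin28a.

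miR-3962: aGGUAGUAguuuguacauuu

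let-7g-5p: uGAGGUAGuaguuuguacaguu

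miR-3076-3p: cGCACUCUggucuucccuugcag

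miR-5618-5p: uACCCUUUacaccguguagu

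miR-3962 was lower in EPO-MVs, with an intensity of 2.11 against 3.56 in MSC-MVs (993 against 1590 steps, ratio 0.593). Its first 17 bases, AGGUAGUAGUUUGUACA, are those of let-7g-5p from base 3, so it reads like a let-7g without the first bases and has another seed. The first 14 are also in let-7i-5p. Both let-7 entries were lower in EPO-MVs too, let-7g-5p with 13.4 against 16.1 (ratio 0.832) and let-7i-5p with 3.01 against 3.52 (ratio 0.854), so the smallest ratio of the 3 was that of miR-3962. The part of let-7 in the signal of the miR-3962 probe was not tested. miR-3076-3p, from the gene within Tkt, which encodes the pentose phosphate enzyme transketolase, was higher in EPO-MVs with 0.499 against 0.315 (235 against 141 steps, ratio 1.58). miR-5618-5p, from the gene within Tmem123, had 0.238 against 0.141 (112 against 63 steps, ratio 1.69).

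The largest ratios among the members were against the smallest values of the MSC-MV array. The sequences of the highest 2 and of the lowest are given for identification.

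miR-5110: gGAGGAGGuagagggugguggaauu

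miR-5622-3p: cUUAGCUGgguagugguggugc

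miR-3966: aGCUGCCAgcuguagaacugu

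miR-5110, within Bcas3, had 27 steps in EPO-MVs against 1 in MSC-MVs (ratio 25.6). miR-5622-3p, from the gene within Tpx2, had 15 steps and 1 step (ratio 14.2). The 3 next were miR-3971 with 14 and 2 steps (ratio 6.64), miR-3088-3p with 13 and 2 steps (ratio 6.17) and miR-3070b-3p with 19 and 3 steps (ratio 6.01). All 5 were under 30 steps on both arrays, so a difference of a few steps sets the size of these ratios. Of the members 3 lay at 1 step in MSC-MVs, with miR-5118 as the third, and none did in EPO-MVs. Over all 831 entries, 14 lay at 1 step in MSC-MVs and 3 in EPO-MVs. At the other end miR-3966 had 16 steps in EPO-MVs against 35 in MSC-MVs (ratio 0.434), miR-3083-3p had 3 and 6 steps (ratio 0.475), miR-3089-5p had 5 and 8 steps (ratio 0.593) and miR-3071-5p had 7 and 11 steps (ratio 0.604). With miR-3962 these were the 5 lowest, and it was the only bright one among them. Next to the lower limit of the rule, the first member by number, miR-3057-5p, had 12 and 6 steps (ratio 1.90), and the entry with the highest number under 3000, miR-2861, had 160 and 156 steps (ratio 0.973).

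For 24 hairpins each arm had a member entry of its own. Not counted among them are miR-3070b, whose 5p arm shares an entry with miR-3070a-5p (ratio 1.45) while its 3p arm had a ratio of 6.01 with 19 and 3 steps, and the second pair of arms of miR-3102. That pair had ratios of 2.30 for the 5p form, with 34 and 14 steps, and 1.34 for the 3p form, with 17 and 12 steps. The 2 arms lay on the same side of 1 in 12 of them, 10 with both higher and 2 with both lower in EPO-MVs, and on opposite sides in the other 12. In none of the 24 did both arms pass 1.5-fold. Of the 48 arms, 8 passed (16.7%), where 25.4% of all entries did. In 8 of the 24 hairpins 1 arm did, and in all 8 the arm that passed was under 60 steps on at least 1 array. The 7 hairpins with both arms at 60 steps or more on both arrays had ratios from 0.842 to 1.44. One of these was miR-3068, with 0.482 in EPO-MVs against 0.573 in MSC-MVs for the 5p arm (ratio 0.842) and, as given above, a ratio of 1.28 for the 3p arm. In miR-5624 the 5p arm had 2.18 and 2.20 (ratio 0.990) and the 3p arm 2.14 and 2.10 (ratio 1.02), and in miR-5626 the ratios were 0.971 and 0.958. At the dim end, miR-5622-5p had 95 and 82 steps (ratio 1.10) beside the ratio of 14.2 of its 3p arm.

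**Figure D4:**
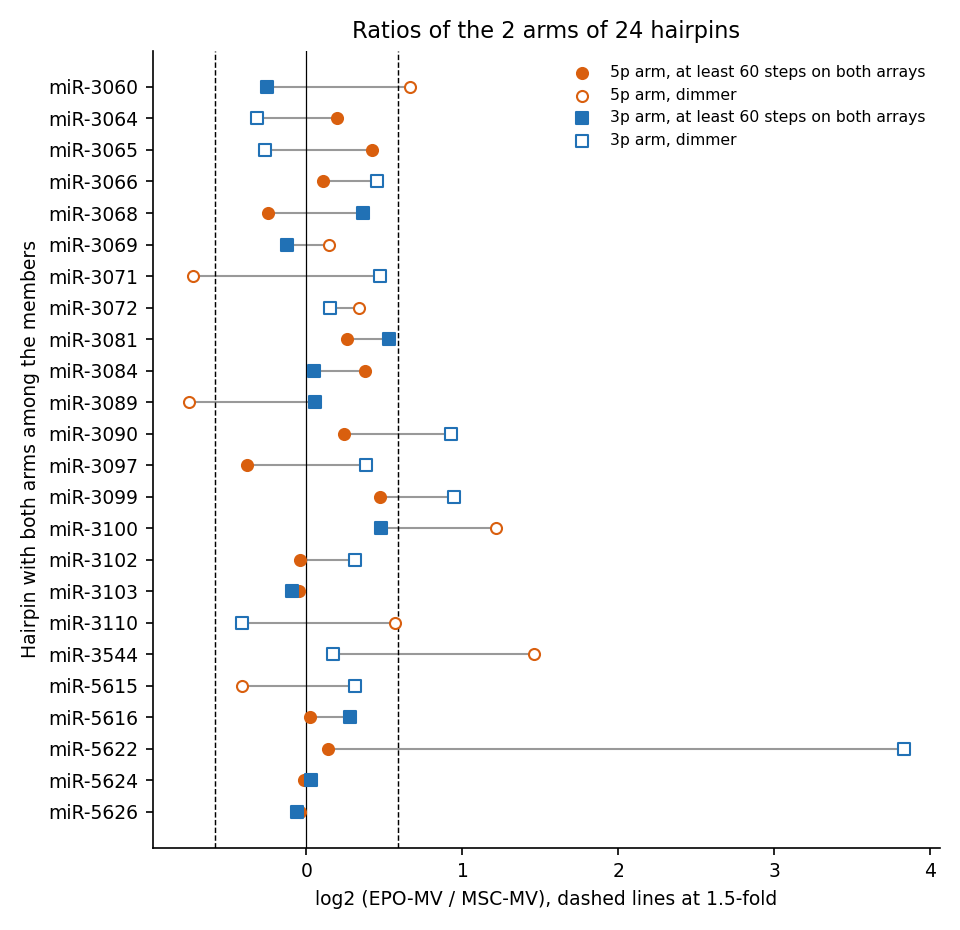
The log2 ratio, EPO-MV over MSC-MV, for the 5p arm (circles) and the 3p arm (squares) of the 24 hairpins whose arms each had a member entry of their own, filled where the arm had at least 60 steps on both arrays, with dashed lines at 1.5-fold. Every filled arm lies within 1.5-fold, and the arms of 12 hairpins lie on opposite sides of 0.

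Some members are the mirror of an early-named miRNA, transcribed from the opposite strand of the same hairpin locus. They are printed with their partners because such probes tell the strands apart by complementary sequence.

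miR-3065-5p: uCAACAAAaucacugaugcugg

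miR-338-3p: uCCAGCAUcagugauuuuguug

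miR-3544-5p: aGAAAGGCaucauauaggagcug

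miR-337-3p: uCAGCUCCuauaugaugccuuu

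miR-3071-3p: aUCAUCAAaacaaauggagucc

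miR-136-5p: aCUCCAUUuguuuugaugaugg

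miR-3065-5p shares 21 bases of perfect complement with miR-338-3p, both from the Aatk locus on chromosome 11. Its intensity was 0.270 in EPO-MVs against 0.201 in MSC-MVs (ratio 1.34), while miR-338-3p had 0.856 and 1.39 (ratio 0.614). The 2 strands thus went opposite ways, and the lower-numbered one passed 1.5-fold. miR-3544-5p is complementary over 21 bases to miR-337-3p, and miR-3071-3p over 20 bases to miR-136-5p. Both loci lie at Rtl1 in the imprinted region of chromosome 12, where miR-136 and its neighbours are expressed from the maternal copy, antisense to Rtl1. miR-3544-5p had 29 and 10 steps (ratio 2.75) against 618 and 575 steps for miR-337-3p (ratio 1.02). miR-3071-3p had 38 and 26 steps (ratio 1.39) against 131 and 112 steps for miR-136-5p (ratio 1.11).

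Other members of this chromosome 12 region were miR-3072-3p, from the noncoding gene Mirg, with 48 and 41 steps (ratio 1.11), and miR-3072-5p with 8 and 6 steps (ratio 1.27). miR-3544-3p had 38 and 32 steps (ratio 1.13). miR-3071-5p, from the same locus as miR-3071-3p, was lower in EPO-MVs with 7 and 11 steps (ratio 0.604). The entry shared by miR-3070a-5p and miR-3070b-5p had 908 and 594 steps, which is an intensity of 1.93 in EPO-MVs against 1.33 in MSC-MVs (ratio 1.45, just inside 1.5-fold). Elsewhere, miR-3093-5p, near Mir9-1 on chromosome 3, had 181 and 168 steps (ratio 1.02). miR-3083-3p, given above, and miR-5615 each lie opposite another miRNA gene, and miR-5615-3p had 47 and 36 steps (ratio 1.24) and miR-5615-5p 15 and 19 steps (ratio 0.749). The other shared entry, of miR-3107-5p and miR-486-5p, an miRNA abundant in red cells and muscle, had 34 and 24 steps (ratio 1.34).

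Clusters were rare among the members. For 11 of the 114 with a sequence (9.65%) another miRNA gene lay within 10000 bases or overlapped, against 264 of the 566 lower-numbered entries with a sequence (46.6%). A gene other than a miRNA gene overlapped the hairpin of 88 members (77.2%) and of 358 lower-numbered entries (63.3%), counted without regard to strand. Of the 40 members named as 3p arms with a sequence, 7 (17.5%) ended in CAG and all 7 overlapped another gene. Of 248 lower-numbered ones 6 did (2.42%), and 3 of these overlapped another gene. These 6 included miR-1224-3p, miR-1231-3p and miR-1982-3p, so the ending was also found in the range from 1187 to 2861. CAG is the usual end of an intron, and mirtrons, miRNAs made directly from short introns, end there. The 7 included miR-3076-3p, miR-3077-3p and miR-3103-3p, 1 of them passed 1.5-fold, and their median log2 ratio was 0.33. Of the 6 lower-numbered ones with this ending 3 passed, all higher, and their median was 0.34, close to that of the members. Over all entries 25.4% passed and the median was 0.05. This ending was looked for after the sequences were seen.

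Seeds were almost all different, 113 seeds in 114 sequences. The exception was CUGGCUG, shared by a pair from different genes, and it is shown for that reason.

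miR-3064-5p: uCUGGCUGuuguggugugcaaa

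miR-3085-3p: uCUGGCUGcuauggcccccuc

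miR-3064-5p, from a gene in Ddx5, had 76 and 63 steps (ratio 1.14), and miR-3085-3p had 9 and 7 steps (ratio 1.22). Seeds shared with lower-numbered entries were those of miR-3102-5p with miR-702-5p (UGAGUGG), of miR-3473a with miR-882 (GGAGAGA), and of miR-3473d with miR-674-5p and miR-1947-3p (CACUGAG). miR-882 had 3.86 in EPO-MVs against 2.70 in MSC-MVs (ratio 1.43) beside the ratio of 1.12 for miR-3473a, and miR-702-5p had 36 and 32 steps (ratio 1.07) beside 1475 and 1442 steps for miR-3102-5p (ratio 0.971). miR-674-5p and miR-1947-3p had ratios of 0.774 and 1.53, on both sides of the 0.994 of miR-3473d.

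The members were richer in G and C than the other entries, with a median content of 54.5% against 47.8%, but less so than the entries numbered from 1187 to 2861, whose median was 58.3%. Of the members, 9 of 114 (7.89%) were shorter than 20 bases against 8 of 566 (1.41%). These 8 were 3 of the 71 numbered from 1187 to 2861 and 5 of the 495 numbered under 1000 with let-7. The extreme was miR-5126, within Dner, all of whose bases are G or C.

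miR-5126: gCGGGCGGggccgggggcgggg

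It had 336 steps on both arrays, an intensity of 0.713 in EPO-MVs against 0.752 in MSC-MVs (ratio 0.949). The ratio of the members went with base composition. Among the 54 members with at least 55% G and C, 15 were higher in EPO-MVs by 1.5-fold or more, with 0 lower, with a median log2 ratio of 0.32. Of the 39 members from 45% to 55%, 6 were higher and 3 lower (median 0.06), and of the 21 under 45%, 2 were higher and 3 lower (median 0.02). The same order held in the other entries, with medians of 0.24, 0.04 and -0.06, and among their 150 GC-rich entries 39 were higher and 7 lower, a share near that of the members. In the middle band 35 of 222 other entries were higher and 16 lower, and under 45% 32 of 194 were higher and 23 lower. Among the members intensity differed between the bands without following their order, with medians of 68.5 and 53.5 steps (EPO-MV, MSC-MV) in the GC-rich band, 112 and 99 in the middle one and 89 and 90 under 45%. Among the other entries intensity did follow the order, with medians of 54.5 and 44 steps, 91 and 85.5, and 152.5 and 164.5. After a lowess curve of ratio on intensity was removed, the members' medians were 0.19, 0.07 and -0.04, with 10 higher and 3 lower in the GC-rich band, where the other entries had 21 and 13. Across the 114 members, the correlation of GC content with the log2 ratio was 0.17 (Pearson) and 0.25 (Spearman), a description over miRNAs that share the same pair of arrays.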

How the data were processed

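RNA of the vesicles was labelled with Hy3 per the labels (the methods name a Hy3/Hy5 kit), hybridized to the miRCURY LNA Array (version 18.0), scanned on an Axon GenePix scanner and read with GenePix Pro 6.0. The authors averaged repeated spots and normalized by the median, with a factor drawn from miRNAs at 30 or brighter on both arrays. The deposited intensity is linear and above 0 for all 831 entries. The channel read, any background correction and the choice of entries are not given in the sources used here. The number of arrays limits the precision.

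Ratios were EPO-MV over MSC-MV, with no pseudocount, and ratios from 1.5 upwards or from 0.667 downwards counted as changed, as in the study's fold filter. Entries were matched by exact name to RefSeq sequences (GRCm38.p6). Because the deposited values name no build, no coordinates are given, and gene overlaps ignore strand. Shared runs of at least 12 bases were searched in both orientations.

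The members and lists were chosen with earlier results of these data known. Named miRNAs are the 15 brightest members, the 5 highest and 5 lowest ratios, those past 1.5-fold with at least 60 steps on both arrays, both arms of a hairpin, shared seeds, miRNA neighbours within 10000 bases and the limits of the rule. Others were picked after their values or sequences were seen. The counting was checked only on a copy of the MSC-MV values in which some entries were changed 2-fold and no noise was added. That outcome was fixed in advance and says nothing of noise between arrays. Scripts ran in Python 3.11.15 with statsmodels 0.14.6 for lowess, matplotlib 3.10.9 for plots, and scipy 1.17.1, numpy 2.4.6 and pandas 2.3.3.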

Additional observations from a re-analysis of the deposited data

How the results depend on the processing

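Background was not measured and each condition had 1 array, so no ratio has an error, and the cause of the shifts below was not tested except where the setting itself gives it. The 32 changed members became 14 at 2-fold, 3 with at least 60 steps on both arrays (fewer entries counted), 2 above the median intensity and 5 after adding 0.0573, the lower-quartile value, to every intensity. Re-centring on the median (33), quantile normalization (34) and lowess with a span of 0.4 (31) stayed within 1.5 times it. The members behind these counts were not all the same. With quantile normalization 25 of the 32 still passed and 9 others did, and with lowess 24 still passed and 7 others did. After re-centring all 32 still passed, with 1 more. Of the members kept, 3.51% passed above the median intensity (all entries 9.16%), 3.88% with the added amount (6.50%), 26.4% with quantile normalization (22.9%) and 24% with lowess (22.6%). Of the changed members 78.1% were higher in EPO-MVs, against 50% above the median intensity, 58.8% with quantile normalization and 54.8% with lowess. The corresponding shares over all entries were 70.1%, 34.2%, 50% and 48.9%. The members' median log2 ratio of 0.20 was 0.050 with at least 60 steps, 0.044 above the median intensity, 0.15 after re-centring, 0.090 with quantile normalization, 0.11 with lowess and 0.12 with the added amount. It stayed above that of all entries kept in each of these 6 settings. Of the changed members, 1 turned its direction, miR-5620-5p with 5 and 3 steps, to ratios of 0.776 with quantile normalization and 0.852 with lowess. Near the threshold, miR-3070a-5p/miR-3070b-5p passed 1.5-fold with quantile normalization (1.52) and miR-3970 passed after re-centring (0.652), while miR-3076-3p and miR-5618-5p fell to 1.49 with the added amount. The added amount took 27 of the 32 out of the changed ones.

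The members' share of the signal, 30.3% in EPO-MVs and 28.3% in MSC-MVs, was 18.7% and 17.0% without miR-3963, and 10.1% and 8.28% without miR-3963 and miR-5100, a setting added after the values were seen. It was 30.4% and 28.5% over entries of 60 steps or more, 30.0% and 28.5% with quantile normalization, and 30.9% and 29.1% without entries of more than 1 name. No paired analysis was possible because there was a single array for EPO-MVs and another for MSC-MVs.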
